A study of Homo sapiens with 8 samples.

Results

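The enzymes described here set the supply of deoxynucleotides, the building blocks of DNA. They are the products of 9 genes taken as a named list: RRM1, RRM2, TYMS, TK1, DTYMK, DCK, DUT, DCTPP1 and SAMHD1. The list was chosen with earlier results of these data known, so counts of its members describe them and are no independent test. It was matched by gene symbol, without use of any measured value, and all 9 were found among the 23228 genes of every count table. RNA sequencing of 8 libraries from cells labelled U87 MG, a human glioblastoma line, was compared across 4 groups of 2 libraries. The groups are unmodified U87 cells (control), U87 cells in which CRISPR/Cas9 was used to knock out estrogen receptor beta (ERb_KO), and these knockout cells after ERβ1 (ERb1) or ERβ5 (ERb5) was put back. ERb1 and ERb5 thus share the knockout background, and all groups were grown in the same serum-containing medium. The labels give neither the number of knockout clones nor the promoter of the returned receptor, and do not say if the paired libraries are separate cultures. The p-values therefore measure only the spread between these libraries, which may be technical.

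Each library held between 26760897 and 48076414 gene reads, and a member had between 178 and 10997 reads in a library. ESR2, the gene of estrogen receptor beta, had 25 and 20 reads in control and 23 and 21 in ERb_KO, with 6 and 18 in ERb1 against 7 and 10 in ERb5. It was not called changed in any comparison, so ESR2 counts do not check the labels, and every group name below means the libraries labelled so. All 10 markers of luminal epithelium were at a CPM (the read count scaled to a common library size) of 10 or more in every library, whereas 6 of 10 astrocyte and glioma markers were below 1 CPM in every library and S100B, AQP4 and OLIG2 had no reads. The defining astrocyte filament GFAP reached at most 0.136 CPM, while SOX2 (11.4 to 30.2 CPM) and CD44 (47.3 to 61.9 CPM) were present. The labelled origin is thus not borne out by these markers. The summed luminal markers were 14426 to 15190 CPM in control as against 12508 to 12876 in ERb_KO, while ERb1 had 17396 to 18387 beside 16222 to 17314 in ERb5, and their part in the differences between groups was not tested. Summed markers of myeloid cells, lymphoid cells and endothelium were at most 1.18, 0.0367 and 0.601 CPM.

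A cell makes deoxynucleotides by 2 routes. In the de novo route, ribonucleotide reductase turns ribonucleoside diphosphates into deoxyribonucleoside diphosphates. Its large subunit RRM1 holds the active and regulatory sites, and its small subunit RRM2 holds the radical that drives the reaction. RRM2 is made in S phase and degraded in mitosis, and RRM2B replaces it outside S phase. TYMS methylates dUMP to dTMP, and DUT supplies that dUMP while keeping uracil out of DNA. In the salvage route TK1 and DCK phosphorylate thymidine and deoxycytidine taken up from outside, and DTYMK adds the next phosphate to dTMP from either route. DCTPP1 hydrolyses dCTP and its modified forms, and SAMHD1 breaks deoxynucleoside triphosphates down to nucleosides. SAMHD1 is also known as an antiviral restriction factor, and in many cells interferon raises its transcript. Many genes of the de novo route are known targets of E2F factors, which act at the start of S phase, or of complexes that bind CCAAT and CHR elements.

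The sequences before the start sites are shown because the genes moved in different patterns, described below. They come from the RefSeq start-site windows on GRCh38.p14, which hold 250 bases before and 50 after a start and matched all 9 genes with 14 windows. Capitals mark the searched letters. These are E2F words (TTTCCCGC, TTTCGCGC, TTTGCCGC and TTTGGCGC), the CCAAT box (CCAAT) and CHR elements (TTTGAA and TTCGAA), each searched on both strands. TYMS (chr18:657543-657652, plus strand) is shown for its E2F word, and DTYMK (chr2:241686816-241686925, minus strand) for its 2 CCAAT boxes with a CHR element between them. SAMHD1 (chr20:36951709-36951818, minus strand) is shown because it followed the interferon genes.
TYMS: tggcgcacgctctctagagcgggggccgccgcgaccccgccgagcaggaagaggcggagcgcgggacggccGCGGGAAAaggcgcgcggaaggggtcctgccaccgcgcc
DTYMK: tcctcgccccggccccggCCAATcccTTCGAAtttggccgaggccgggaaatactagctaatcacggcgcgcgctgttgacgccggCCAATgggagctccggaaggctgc
SAMHD1: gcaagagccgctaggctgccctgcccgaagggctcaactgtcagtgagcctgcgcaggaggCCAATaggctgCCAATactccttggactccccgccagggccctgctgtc
RRM2 has 3 CCAAT boxes in near-repeats at chr2:10122604-10122633, chr2:10122634-10122663 and chr2:10122661-10122690 (plus strand).
RRM2 a: ggcaaggcgcagCCAATgggaagggtcgga
RRM2 b: ggcatggcacagCCAATgggaagggccggg
RRM2 c: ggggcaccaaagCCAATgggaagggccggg
TK1 has its 2 CCAAT boxes on the opposite strand, read as ATTGG, at chr17:78187112-78187141 and chr17:78187081-78187110 (minus strand). DUT has 2 E2F words within a stretch of 30 bases at chr15:48332151-48332180 (plus strand).
TK1 a: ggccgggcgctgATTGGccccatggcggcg
TK1 b: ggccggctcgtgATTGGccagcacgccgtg
DUT: gctgGCGGGAAAtttcggtTTTGGCGCgct

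An E2F word was found for 3 of the 9 genes (TYMS, DCK and DUT) and in 3.30% of all 34943 windows. A CCAAT box was found for 5 genes (RRM1, RRM2, TK1, DTYMK and SAMHD1) and in 34.6% of all windows, and a CHR element for 3 genes (RRM1, DTYMK and DUT) and in 16.4%. A core of interferon response elements, spelled GAAA, any 2 bases and GAAA, was found in no window of the 9 genes and in 3.57% of all windows. The estrogen response element, spelled GGTCA, any 3 bases and TGACC, was likewise in no window of the 9 genes and in 0.0572% of all. A gene was counted if any of its 1 to 4 windows held the letters, whereas the shares are per window. The counts of genes therefore cannot be read against those shares. These matches describe letters in these windows and say nothing of binding.

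Levels are given as CPM scaled between libraries by the TMM method. RRM2 (GRCh37 chromosome 2, 10260825 to 10351851, plus strand) varied most among the enzymes of the de novo route. Its level was 131 and 101 CPM in control and 252 and 220.0 in ERb_KO, with 32.1 and 34.7 in ERb1 against 49.5 and 57.1 in ERb5. The order was ERb_KO, control, ERb5 and ERb1 with no overlap between any groups. In bulk RNA, fewer cells with a transcript and less of it per cell cannot be told apart. Its partner RRM1 (chromosome 11, 4115937 to 4160162, plus strand) varied far less. It was at 72.3 and 66.3 CPM in control as against 93.0 and 77.3 in ERb_KO, while ERb1 had 55.6 and 57.4 beside 65.9 and 53.9 in ERb5. The highest libraries were again those of ERb_KO, and ERb1 and ERb5 overlapped.

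Thymidylate was served by genes of similar direction and unequal size of change. TYMS (chromosome 18, 657653 to 673578, plus strand) was at 57.6 and 54.5 CPM in control and 81.7 and 72.7 in ERb_KO, with 32.1 and 27.5 in ERb1 against 30.5 and 30.7 in ERb5. ERb1 and ERb5 overlapped, and both lay below control, which lay below ERb_KO. TYMS shares 967 bases with ENOSF1 on the opposite strand, and whether the counting used strand is not given in the sources used here, so reads of that stretch cannot be assigned to a strand. DUT (chromosome 15, 48623208 to 48635570, plus strand) was at 26.8 and 23.8 CPM in control as against 37.9 and 56.9 in ERb_KO, while ERb1 had 13.2 and 15.2 beside 14.4 and 15.1 in ERb5. Its ERb_KO libraries stood furthest apart of any DUT pair, and the annotation names 8 DUT pseudogenes that could take reads from it. The annotation also names 3 pseudogenes of RRM2 and 2 of TYMS. On the opposite strand DUT shares 533 bases with DUT-AS1, TYMS 193 with TYMSOS and RRM1 63 with RRM1-AS1. The salvage kinase TK1 (chromosome 17, 76170172 to 76183314, minus strand) was at 38.9 and 36.1 CPM in control and 38.8 and 44.8 in ERb_KO, with 16.2 and 16.1 in ERb1 against 24.0 and 28.8 in ERb5. Control and ERb_KO overlapped, ERb5 lay below them, and ERb1 was lowest. DTYMK (chromosome 2, 242615162 to 242626359, minus strand), which acts after both TYMS and TK1, moved least. It was at 18.8 and 18.1 CPM in control as against 17.8 and 22.3 in ERb_KO, while ERb1 had 12.6 and 13.3 beside 15.2 and 16.3 in ERb5, with control inside the range of ERb_KO.

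DCK (chromosome 4, 71858255 to 71896631, plus strand), which starts salvage of deoxycytidine, was the least abundant of the 9 per length of transcript in control, at 4.64 CPM per kilobase. Its level was 12.5 and 10.8 CPM in control and 15.4 and 18.7 in ERb_KO, with 6.68 and 10.6 in ERb1 against 10.2 and 8.48 in ERb5. The ERb1 libraries stood 1.59-fold apart and enclosed both ERb5 libraries. DCK shares 199 bases with MOB1B on the same strand.

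DCTPP1 and SAMHD1, which remove deoxynucleotides, did not follow the enzymes from RRM1 to DUT in every group. DCTPP1 (chromosome 16, 30434936 to 30441351, minus strand) was at 117 and 115 CPM in control as against 77.2 and 82.2 in ERb_KO, while ERb1 had 128 and 119 beside 120.4 and 112 in ERb5. Here ERb_KO was the low group, and the others lay close together. DCTPP1 was the most abundant of the 9 per length of transcript in control, ERb1 and ERb5, at 98.4, 104 and 98.4 CPM per kilobase, while in ERb_KO RRM2 (72.5) was above it (67.5). SAMHD1 (chromosome 20, 35518632 to 35580296, minus strand) was at 35.7 and 32.7 CPM in control and 142 and 105.3 in ERb_KO, with 42.1 and 40.3 in ERb1 against 129 and 174 in ERb5. ERb_KO and ERb5 were the high groups and overlapped, and ERb1 lay just above control without overlap. SAMHD1 shares 1068 bases with TLDC2 and DCTPP1 shares 645 with ZNF771, each on the opposite strand. Reads of these stretches cannot be assigned to a strand either.

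**Figure D1:**
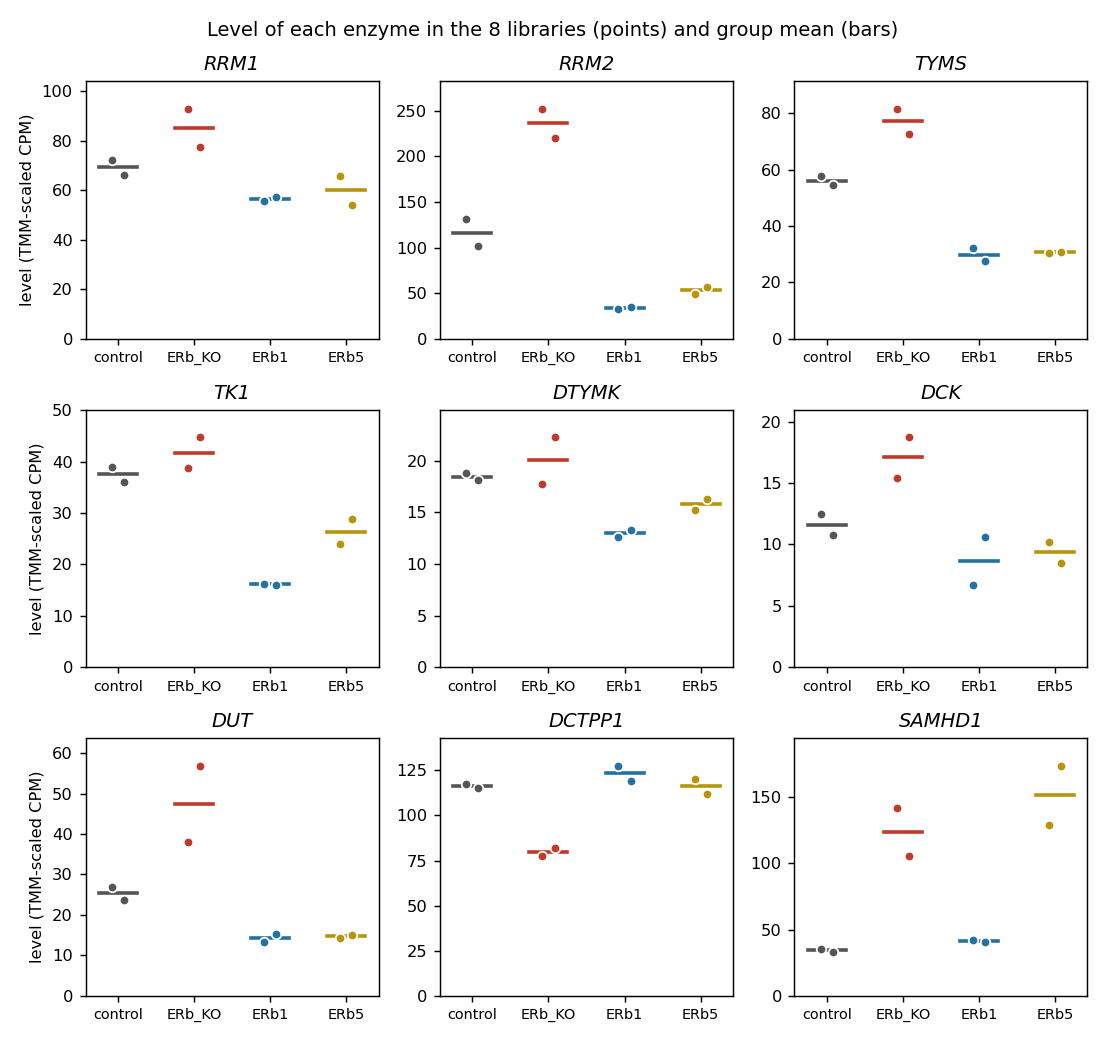
Level of each of the 9 enzymes in TMM-scaled CPM (y axis, from 0, a separate scale for each gene) by group (x axis). Points are the 8 libraries and bars the group means of 2 libraries. RRM2, TYMS and DUT peak in ERb_KO and are low in ERb1 and ERb5, DCTPP1 is lowest in ERb_KO, and SAMHD1 is high in ERb_KO and ERb5.

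The balance between paired enzymes is given as ratios of levels per kilobase within a library. The ratio of RRM2 to RRM1 was 1.74 and 1.47 in control as against 2.62 and 2.74 in ERb_KO, while ERb1 had 0.557 and 0.583 beside 0.725 and 1.02 in ERb5. The small subunit was thus above the large subunit in all control and ERb_KO libraries, and below it in both ERb1 libraries. RRM2 over RRM2B, the alternative small subunit, was 1.31 and 0.996 in control and 2.17 and 1.87 in ERb_KO, with 0.339 and 0.296 in ERb1 against 0.582 and 0.764 in ERb5. RRM2B itself ran from 109 to 173 CPM over the 8 libraries. TK1 over its mitochondrial counterpart TK2 was 6.17 and 5.68 in control as against 5.43 and 6.11 in ERb_KO, while ERb1 had 2.14 and 1.98 beside 3.03 and 3.94 in ERb5. SAMHD1 over RRM2, an enzyme that breaks triphosphates down against a subunit that makes their precursors, was lowest in control (0.191 and 0.226), then came ERb_KO (0.393 and 0.336), ERb1 (0.918 and 0.814) and ERb5 (1.83 and 2.14), with no overlap. These ratios describe RNA and were given no test.

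**Figure D2:**
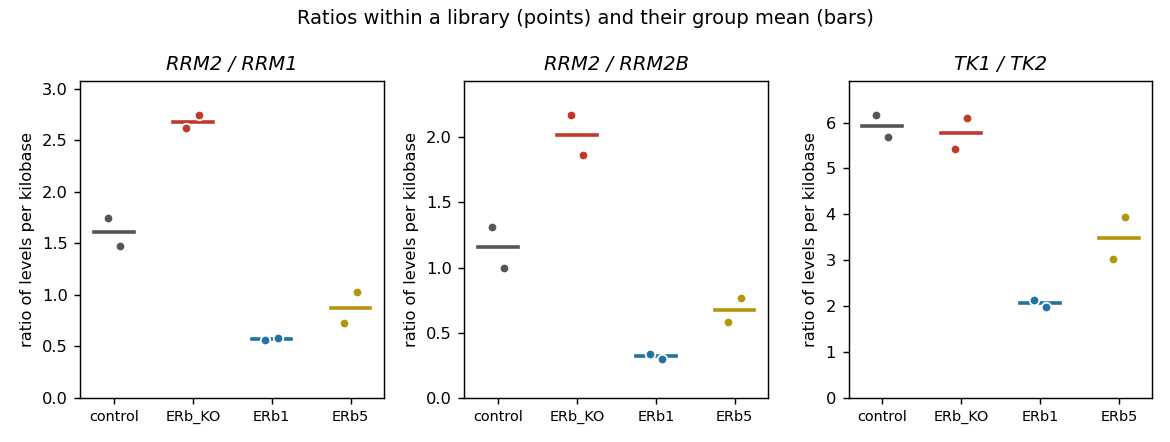
Ratios of levels per kilobase between paired enzymes within a library (y axis, from 0) by group (x axis). Points are libraries and bars the means of 2. RRM2 over RRM1 falls from 2.62 and 2.74 in ERb_KO to 0.557 and 0.583 in ERb1, and TK1 over TK2 is lowest in ERb1 at 2.14 and 1.98.

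Each comparison was tested with edgeR's quasi-likelihood test over all 13915 tested genes. A gene was called changed at a Benjamini-Hochberg adjusted p under 0.05, and changes are log2 fold changes ± SE. All 9 members passed the filter on low counts. Each group enters 3 of the 6 comparisons, so changes that share a group are not independent of each other.

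Against control, the libraries labelled ERb_KO had more transcript of the de novo enzymes RRM2, TYMS and DUT and of SAMHD1, and less of DCTPP1. Of the 9 members 4 were higher and 1 lower, against a background of 8.98% of tested genes higher and 8.52% lower. The mean of RRM2 went from 116 ± 20.9 to 236 ± 22.9 CPM (SD, n = 2), which is a log2 change of 1.03 ± 0.13 (edgeR adjusted p = 0.00114). DUT rose by 0.90 ± 0.17 (adjusted p = 0.00693) and TYMS by 0.46 ± 0.11 (adjusted p = 0.0190). SAMHD1 rose by 1.85 ± 0.16 (adjusted p = 0.000134), a 3.62-fold change. DCTPP1 fell by 0.54 ± 0.10 on the log2 scale (adjusted p = 0.00488). RRM1 (0.30 ± 0.13, adjusted p = 0.116), DCK (0.55 ± 0.20, adjusted p = 0.0759), TK1 (0.15 ± 0.12, adjusted p = 0.406) and DTYMK (0.11 ± 0.14, adjusted p = 0.575) did not pass. TYMS and DCTPP1 lost their calls without control 1 (adjusted p = 0.100 and 0.0571), without control 2 (0.179 and 0.0662) or without ERb_KO 1 (0.140 and 0.0553), and DUT without control 2 (0.0813). Against a minimum change of 1.5-fold SAMHD1 alone passed, and TK1 passed once the GC trend described below was removed (0.44, adjusted p = 0.0136).

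In ERb1 against ERb_KO all 7 enzymes that make deoxynucleotides, from RRM1 to DUT, fell, SAMHD1 fell with them, and DCTPP1 rose. Among the members 8 were lower and 1 higher, where 12.5% of tested genes were lower and 12.4% higher. RRM2 fell from a mean of 236 ± 22.9 to 33.4 ± 1.84 CPM (SD, n = 2), which is a log2 change of -2.82 ± 0.14 (edgeR adjusted p = 1.9e-06), and by size of change it ranked 50 among 13915 genes. DUT (-1.73 ± 0.18, adjusted p = 6.74e-05), SAMHD1 (-1.59 ± 0.16, adjusted p = 6.74e-05), TYMS (-1.38 ± 0.11, adjusted p = 1.47e-05) and TK1 (-1.37 ± 0.13, adjusted p = 3.87e-05) fell by more than 2.5-fold. Smaller falls were those of DCK (-0.96 ± 0.20, adjusted p = 0.00656), DTYMK (-0.62 ± 0.14, adjusted p = 0.00780) and RRM1 (-0.59 ± 0.13, adjusted p = 0.00660). DCTPP1 rose by 0.63 ± 0.10 (adjusted p = 0.00103). Without ERb1 1 the calls of RRM1, DTYMK and DCK were lost (adjusted p = 0.0560, 0.0584 and 0.0552), as were those of RRM1 without ERb_KO 1 (0.0626) and DTYMK without ERb_KO 2 (0.0657). RRM2, TYMS, TK1, DUT and SAMHD1 also passed the test against a 1.5-fold change.

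In ERb5 against ERb_KO the de novo enzymes fell again, while SAMHD1 did not pass in either direction. Of the members 6 were lower and 1 higher, with 13.5% of tested genes lower and 14.7% higher. The mean of RRM2 went from 236 ± 22.9 to 53.3 ± 5.33 CPM (SD, n = 2), which is a log2 change of -2.15 ± 0.14 (edgeR adjusted p = 5.81e-05). DUT fell by 1.69 ± 0.18 (adjusted p = 0.000242), TYMS by 1.33 ± 0.11 (adjusted p = 0.000133) and TK1 by 0.66 ± 0.13 (adjusted p = 0.00491). DCTPP1 rose by 0.54 ± 0.10 (adjusted p = 0.00359). The change of SAMHD1 was 0.29 ± 0.16 (adjusted p = 0.175), with a 95% interval from -0.05 to 0.64, and it passed only without ERb5 1 (0.49, adjusted p = 0.0279). DTYMK did not pass (-0.34 ± 0.14, adjusted p = 0.0793), but did once the GC trend was removed (-0.59, adjusted p = 0.00802) and without ERb_KO 1 (-0.50, adjusted p = 0.0493). RRM1 (-0.51 ± 0.13, adjusted p = 0.0144) and DCK (-0.86 ± 0.20, adjusted p = 0.0119) lost their calls with the GC trend removed (adjusted p = 0.0552 and 0.0559) and without ERb5 2 (0.0844 and 0.0690). RRM1 also lost it without ERb_KO 1 (adjusted p = 0.108) and DCK without ERb_KO 2 (0.0737), and RRM2, TYMS and DUT were those past a 1.5-fold change.

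The direct comparison of the isoforms, ERb5 against ERb1, asks where they differ. RRM2, TK1 and SAMHD1 were higher in ERb5, and the other enzymes did not pass. That is 3 of 9 higher and 0 lower, beside 3.49% and 1.18% of tested genes. The mean of SAMHD1 went from 41.2 ± 1.24 to 152 ± 31.7 CPM (SD, n = 2), which is a log2 difference of 1.88 ± 0.16 (edgeR adjusted p = 0.000160). TK1 differed by 0.71 ± 0.13 (adjusted p = 0.00890) and RRM2 by 0.67 ± 0.14 (adjusted p = 0.0160). The 95% interval of the difference ran from -0.21 to 0.29 for TYMS, from -0.35 to 0.44 for DUT, from -0.19 to 0.36 for RRM1 and from -0.36 to 0.55 for DCK. These intervals hold differences in either direction. For DTYMK it ran from -0.02 to 0.58 and for DCTPP1 from -0.29 to 0.12. The calls of RRM2 and TK1 were lost without ERb1 1 (adjusted p = 0.104 and 0.0668), without ERb1 2 (0.0856 and 0.0779) and without ERb5 2 (0.0957 and 0.0571), and against a minimum change of 1.5-fold. SAMHD1 was called in all of these.

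Against control rather than ERb_KO, RRM2, TYMS, TK1 and DUT were lower in ERb1 and in ERb5. In ERb1 4 members were lower and 0 higher (2.70% and 1.36% of tested genes), and in ERb5 4 were lower and 1 higher (6.31% and 6.85%). The log2 changes in ERb1 were -1.79 ± 0.14 for RRM2 (edgeR adjusted p = 0.000103), -1.22 ± 0.13 for TK1 (0.000546), -0.91 ± 0.11 for TYMS (0.00110) and -0.83 ± 0.18 for DUT (0.0235). In ERb5 they were -1.12 ± 0.14 for RRM2 (edgeR adjusted p = 0.000370), -0.51 ± 0.13 for TK1 (0.0216), -0.87 ± 0.11 for TYMS (0.000603) and -0.78 ± 0.18 for DUT (0.0136). SAMHD1 was higher in ERb5 by 2.15 ± 0.17 (edgeR adjusted p = 2.44e-05) and not called in ERb1 (0.27 ± 0.16, adjusted p = 0.396). DCTPP1 was close to its control level in both, with changes of 0.09 ± 0.10 in ERb1 and 0.00 ± 0.10 in ERb5 (95% interval from -0.21 to 0.21). DUT in ERb1 lost its call without any of the 4 libraries compared (adjusted p from 0.0603 to 0.230), and in ERb5 without control 1 (0.114). TK1 in ERb5 lost it without control 1, control 2 or ERb5 1 (adjusted p = 0.200, 0.0830 and 0.0889). RRM2 and TK1 in ERb1, and RRM2 and SAMHD1 in ERb5, also passed the test against a 1.5-fold change.

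**Figure D3:**
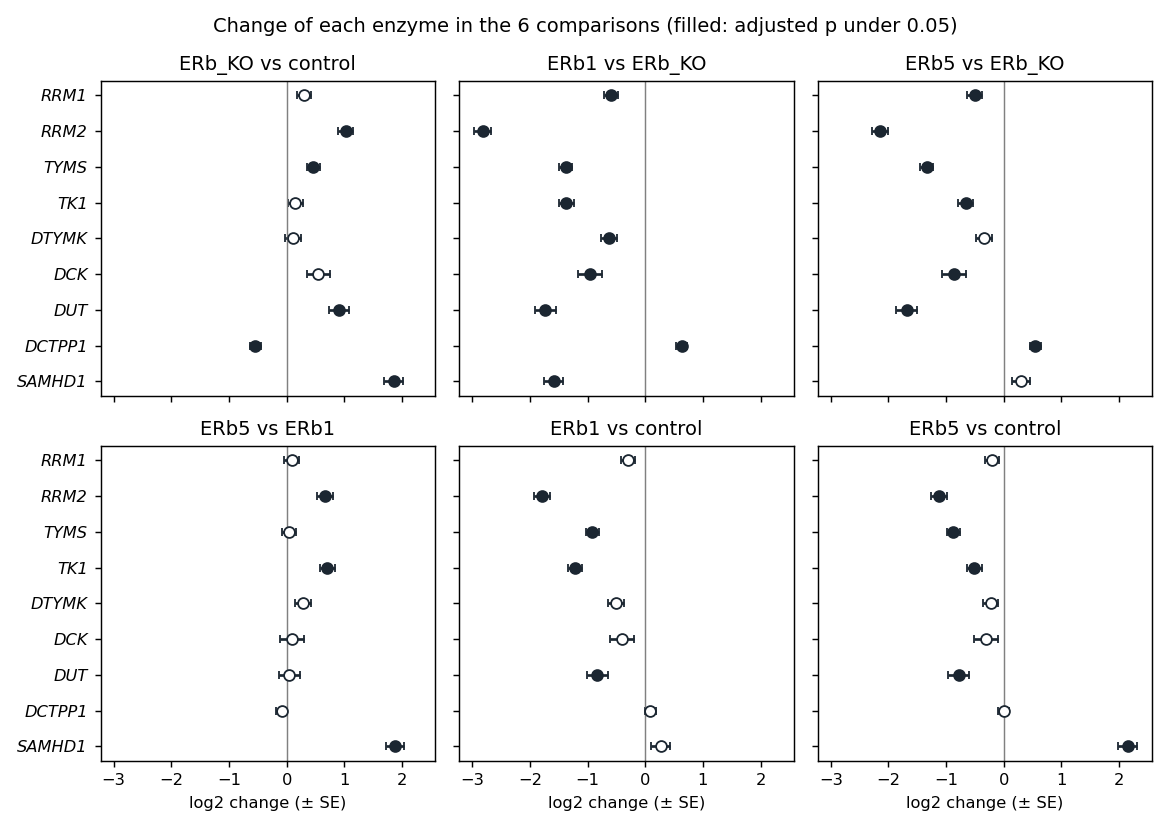
Log2 change of each enzyme (x axis, points with bars of ± 1 SE) in the 6 comparisons, 1 panel each, with filled points for adjusted p under 0.05. RRM2 moves from 1.03 in ERb_KO against control to -2.82 in ERb1 against ERb_KO, DCTPP1 has the opposite sign to RRM2 in these comparisons and in ERb5 against ERb_KO, and the filled points in ERb5 against ERb1 are SAMHD1 (1.88), TK1 (0.71) and RRM2 (0.67).

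GC content of the transcripts moved with the ERb_KO group. Across genes, which are not independent replicates, the deviation of a library from the 8-library mean correlated with GC content at r = -0.57 and -0.46 in ERb_KO and at -0.14 to 0.36 elsewhere. The members span 35.4% GC (DCK) to 60.3% GC (TK1). Removing each library's trend with GC content and length left the log2 changes of RRM2 at 0.83, -2.63 and -1.91 in ERb_KO against control and in ERb1 and ERb5 against ERb_KO, all called. It lowered that of DCK from 0.55 to 0.13 in ERb_KO against control and raised that of TK1 from 0.15 to 0.44. In ERb1 against control it added DTYMK (-0.47, edgeR adjusted p = 0.0301) and DCK (-0.49, adjusted p = 0.0422) to the calls.

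The genes of the members' neighbouring steps were read from lists of the same pathway. Among 29 other deoxynucleotide enzymes, 3 were higher and 6 lower in ERb_KO against control, 5 and 5 in ERb1 against ERb_KO, 9 and 5 for ERb5 against ERb_KO, 2 and 0 for ERb5 against ERb1, 0 and 1 in ERb1 against control, and 4 and 3 in ERb5 against control. Their median log2 changes lay between -0.10 and 0.23. The list thus held calls in both directions, as did all tested genes. In the same order of comparisons, 8.98%, 12.4%, 14.7%, 3.49%, 1.36% and 6.85% of all tested genes were higher. The shares lower were 8.52%, 12.5%, 13.5%, 1.18%, 2.70% and 6.31%. The same shares stand beside the counts of the lists that follow. RRM2B was called in ERb5 against ERb_KO (-0.55 ± 0.12, edgeR adjusted p = 0.00736), which after removal of the GC trend was -0.06 (adjusted p = 0.586). With that trend removed RRM2B also passed as lower in ERb_KO against control (-0.25, adjusted p = 0.0465) and higher in ERb1 against ERb_KO (0.25, adjusted p = 0.0261), both against the sign before removal (0.22 and -0.14). RRM2B then passed as lower in ERb5 against ERb1 (-0.31, adjusted p = 0.0236) and against control (-0.31, adjusted p = 0.0120). Before removal these had the same sign and were not called (-0.41 and -0.33). NUDT1, which clears oxidised nucleotides, rose in ERb_KO against control by 0.65 ± 0.16 (adjusted p = 0.0213) and fell in ERb1 against ERb_KO by 0.93 ± 0.16 (adjusted p = 0.00247) and in ERb5 against ERb_KO by 0.52 ± 0.16 (adjusted p = 0.0343). The rise was lost without any of its 4 libraries (adjusted p from 0.0752 to 0.149), and the fall in ERb5 without ERb_KO 1, ERb_KO 2 or ERb5 1 (0.0891, 0.121 and 0.165). After removal of the GC trend the rise of NUDT1 was 1.02 and its fall in ERb5 -0.91, both called. NT5E, which dephosphorylates nucleoside monophosphates outside the cell, fell in ERb1 against ERb_KO by 2.30 ± 0.34 (adjusted p = 0.000813) from 1.78 CPM. DPYD, which degrades thymine and uracil, rose by 1.03 ± 0.16 in ERb_KO against control (adjusted p = 0.00301) and was 0.75 ± 0.16 higher in ERb5 than in ERb1 (adjusted p = 0.0199), while UPP1, a uridine phosphorylase, fell by 1.24 ± 0.22 in ERb_KO (adjusted p = 0.00498). The difference of DPYD between ERb5 and ERb1 was not called without ERb1 1, ERb1 2 or ERb5 2 (adjusted p = 0.104, 0.0826 and 0.111), nor the fall of UPP1 without control 2 (0.0516).

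Other partners of the members were called once or not at all. DCTD, which turns dCMP into dUMP for TYMS, had means of 81.6, 76.3, 81.9 and 76.9 CPM in control, ERb_KO, ERb1 and ERb5. Its log2 changes ran from -0.10 to 0.10 over the comparisons, and none passed (edgeR adjusted p from 0.483 to 0.985). TK2, with means of 21.4, 24.4, 26.4 and 25.6 CPM, was not called either. DGUOK, the mitochondrial deoxyguanosine kinase, was called once, in ERb5 against ERb_KO (0.51 ± 0.14, adjusted p = 0.0206), where ERb5 2 stood high at 52.8 CPM against 38.2 in ERb5 1. That call was lost without ERb_KO 1, ERb_KO 2 or ERb5 2 (adjusted p = 0.0935, 0.0775 and 0.193). CDA, a cytidine deaminase, was at most 0.431 CPM, with 4 to 18 reads per library, and was not called.

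Folate carries the one-carbon unit that TYMS uses. Of the 8 folate genes listed, 1 was higher and 1 lower in ERb_KO against control, beside 8.98% and 8.52% of tested genes. The counts were 0 and 3 in ERb1 against ERb_KO (12.4% and 12.5%) and 2 and 3 in ERb5 against ERb_KO (14.7% and 13.5%). The first of these counts were 0 and 0 without control 1, control 2 or ERb_KO 1 and after removal of the GC trend. SLC19A1, a folate carrier, rose by 0.72 ± 0.13 in ERb5 against ERb_KO (edgeR adjusted p = 0.00447). In ERb_KO against control SLC19A1 fell by 0.55 ± 0.13 (adjusted p = 0.0191). With the GC trend removed these were 0.35, still called, and -0.26, not called. GGH, which trims folate polyglutamates, fell by 0.79 ± 0.17 in ERb1 against ERb_KO and by 0.66 ± 0.17 in ERb5 against ERb_KO (edgeR adjusted p = 0.00635 and 0.0157). The former lost its call without ERb1 1 (adjusted p = 0.0502). The latter lost it without ERb_KO 1, ERb_KO 2 or ERb5 2 (0.0737, 0.0533 and 0.0920) and after removal of the GC trend, which left -0.37 (0.0659). SHMT2, which loads the one-carbon unit in mitochondria, fell by 0.29 ± 0.09 and 0.77 ± 0.09 in the same comparisons (adjusted p = 0.0438 and 0.000512) and was 0.48 ± 0.09 lower in ERb5 than in ERb1 (adjusted p = 0.0128). The change of SHMT2 in ERb1 against ERb_KO was not called without any of its 4 libraries (adjusted p from 0.0577 to 0.196), with the replicate block (0.0521), with upper quartile scaling (0.0672), without a filter (0.0535) or in a fit of these groups only (0.0616), and after removal of the GC trend it was -0.45 and called. Its difference between ERb5 and ERb1 was not called without ERb1 1 or ERb1 2 (0.0800 and 0.0690).

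Most genes of the G2/M list were called in every comparison but ERb5 against control. Of 25 G1/S genes, 11 were higher and 1 lower in ERb_KO against control, 1 higher and 20 lower in ERb1 against ERb_KO, and 0 higher and 14 lower in ERb5 against ERb_KO. CDC45, a part of the replicative helicase, changed by 0.87 ± 0.12, -1.92 ± 0.12 and -1.34 ± 0.12 in these comparisons (edgeR adjusted p = 0.00133, 5.17e-06 and 0.000133), and PRIM1, a primase subunit, by -1.80 ± 0.16 and -1.85 ± 0.16 in the later pair (adjusted p = 2.91e-05 and 0.000133). Of 20 G2/M genes, all 20 were higher in ERb_KO against control and all 20 lower in ERb1 and in ERb5 against ERb_KO. Without control 2 the first of these counts fell to 4, and that of the G1/S genes to 1. In ERb5 against ERb1, 17 of the G2/M genes and 3 of the G1/S genes were higher and 0 lower. Without ERb1 1 these counts were 3 and 0. In ERb1 against control 19 of the G2/M genes and 11 of the G1/S genes were lower and 0 higher, and without control 1 these were 10 and 4. In ERb5 against control 3 of the G2/M genes (list median -0.18) and 7 of the G1/S genes (list median -0.10) were lower and 0 higher, where RRM2, TYMS, TK1 and DUT were each called lower. Without control 1 those counts were 1 and 2. Among 19 regulators tied to the members, 7 rose in ERb_KO against control and 11 fell in each of ERb1 and ERb5 against ERb_KO. Without control 2 the 7 became 3. MYBL2, which acts with the CCAAT and CHR binding complexes, changed by 1.01 ± 0.11, -2.32 ± 0.11 and -1.40 ± 0.11 in these comparisons (adjusted p = 0.000370, 1.9e-06 and 0.000133). CCNA2, the S-phase cyclin, changed by 1.09 ± 0.17, -2.77 ± 0.18 and -1.69 ± 0.17 (adjusted p = 0.00265, 5.17e-06 and 0.000230). How far the share of dividing cells bears on the members was not tested.

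SAMHD1 is set beside the interferon-stimulated genes, and so is CMPK2, a mitochondrial kinase of pyrimidine nucleotides that belongs to that response. CMPK2 was at 3.11 and 2.76 CPM in control and 65.3 and 48.0 in ERb_KO, with 5.07 and 6.69 in ERb1 against 96.1 and 239 in ERb5. As for SAMHD1, ERb_KO and ERb5 were high and control and ERb1 low. CMPK2 rose by 4.27 ± 0.43 in ERb_KO against control (edgeR adjusted p = 0.000839), fell by 3.25 ± 0.40 in ERb1 against ERb_KO (adjusted p = 0.000713) and was 4.81 ± 0.42 higher in ERb5 than in ERb1 (adjusted p = 0.000445). The last call was lost without ERb1 1 (adjusted p = 0.0512) and in a fit of these groups only (0.157). In ERb5 against ERb_KO it rose by 1.56 ± 0.35 (adjusted p = 0.0132), a call lost without ERb_KO 1 or ERb_KO 2 (0.0669 and 0.117) and after removal of the GC trend (0.0512). Of the 27 interferon-stimulated genes tested, 26 were higher in ERb_KO against control, 24 lower in ERb1 against ERb_KO, 22 higher in ERb5 against ERb_KO and, for ERb5 against ERb1, 27 higher, with 0 in the opposite direction. Leaving out ERb_KO 2 lowered the 22 to 3, and leaving out ERb1 1 lowered the 24 to 16 and the 27 to 16. The median level of the list was 30.4 and 30.6 CPM in control as against 237 and 199 in ERb_KO, while ERb1 had 51.3 and 61.6 beside 326 and 477 in ERb5. This order of groups matches that of the SAMHD1 means, 34.2, 123, 41.2 and 152 CPM. The calls did not match throughout. SAMHD1 was not called in ERb5 against ERb_KO or in ERb1 against control, where 22 and 9 of the 27 listed genes were higher. The part of interferon signalling in the level of SAMHD1 was not tested.

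**Figure D4:**
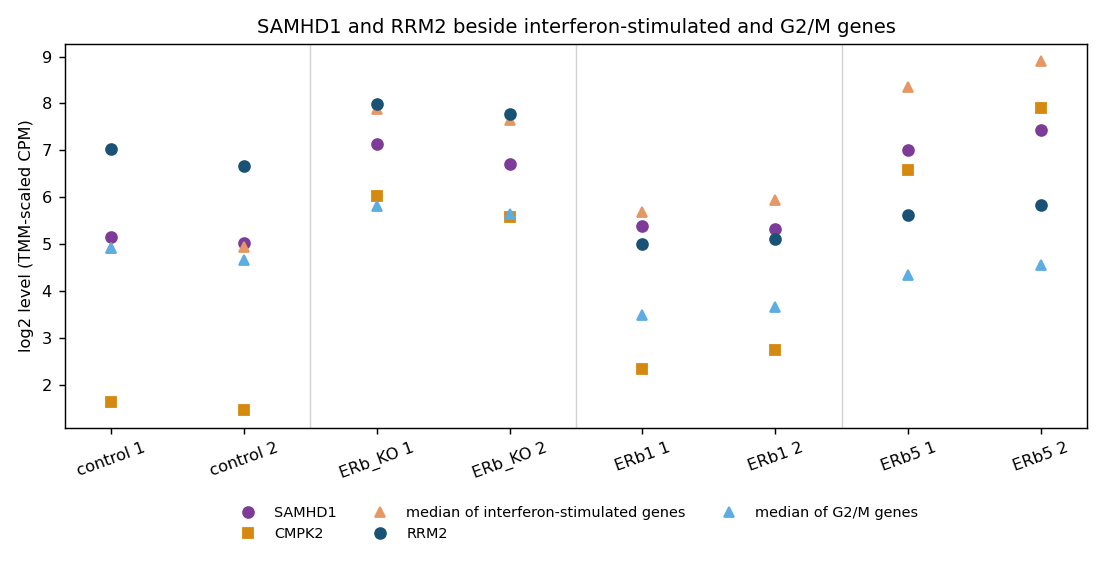
Log2 level in TMM-scaled CPM (y axis) in each of the 8 libraries (x axis) of SAMHD1, CMPK2 and RRM2, with the medians of the interferon-stimulated and G2/M lists. SAMHD1, CMPK2 and the interferon median are high in ERb_KO and ERb5, whereas RRM2 and the G2/M median are highest in ERb_KO and lowest in ERb1.

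Likeness of pattern was measured as Pearson's r of log2 CPM over the 8 libraries, which fall into groups, so that r is a description. The 5 genes most like RRM2 were TOP2A, a topoisomerase (r = 0.995), the mitotic motor KIF15 (0.994), FNDC3B (0.993), TCF19 (0.992) and DTL (0.991), a part of a ubiquitin ligase active in S phase. Those most like SAMHD1 were HERC5, the ligase for the ubiquitin-like protein ISG15 (0.996), PARP14 (0.996), B4GALT1, a galactosyltransferase (0.996), PLSCR1 (0.994) and IFI44 (0.992), and HERC5, PARP14, PLSCR1 and IFI44 are known to be induced by interferon. Among the 7 enzymes from RRM1 to DUT, r between pairs lay from 0.673 to 0.968. DCTPP1 had r from -0.862 to -0.668 with those 7, and SAMHD1 from 0.0758 to 0.262.

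**Figure D5:**
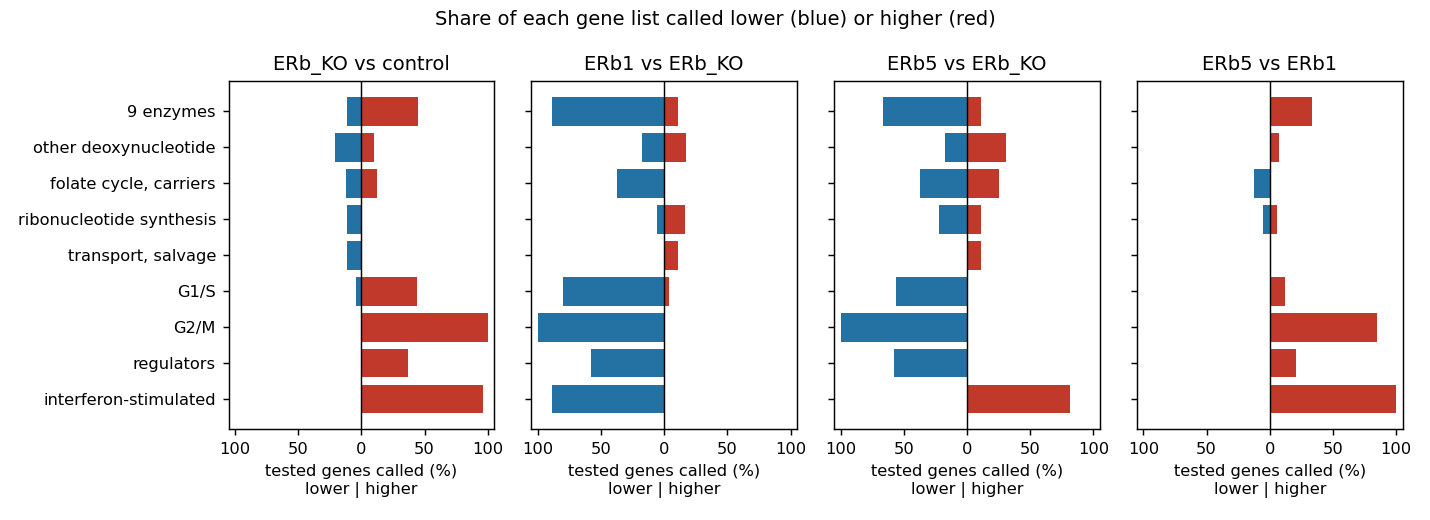
Share of the tested genes of each list, the 9 members included, called lower (blue, to the left) or higher (red, to the right) in 4 comparisons, in percent (x axis; the lists are on the y axis). The G2/M list reaches 100% lower in ERb1 and ERb5 against ERb_KO, and the interferon list is called lower in ERb1 and higher in ERb5.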

How the data were processed

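Total RNA from cells labelled U87 MG gave 8 libraries, read from a single end over 50 bases. The authors deposited raw whole-number read counts per gene. Per the submitters' processing notes, bcl2fastq, TopHat2 2.0.8b and HTSeq were used with hg19, and per the labels' design text the counts came from an HTSeq and DESeq pipeline. Neither the strand setting nor the annotation release is given in the sources used here. The 5 closing entries that name no gene were left out: 34.7 to 39.9% of all counted reads did not align uniquely, 7.01 to 7.79% were outside genes and 0.540 to 0.561% were ambiguous.

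Groups came from the sample titles. Genes were filtered with filterByExpr (minimum count 10, minimum total 15), scaled by TMM and tested with edgeR 4.0.16 (quasi-likelihood, robust, all 8 libraries in 1 fit) in R 4.3.3, adjusted by Benjamini-Hochberg over 13915 genes. The common coefficient of variation was 0.102. Standard errors were taken from the change and the root of its F statistic, and intervals are at 95%. The scripts were tested on simulated data. Levels per kilobase use GENCODE transcripts on GRCh37, matched by symbol to 94.3% of tested genes. Precision is limited by 2 libraries per group more than by depth. Replicates differed by more than sampling noise (chi-square per degree of freedom 7.72 to 42.3).

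The members and lists were chosen with earlier results of these data known. Named genes are the members, ESR2, 8 fixed pathway genes, up to 3 called genes of largest change per list and comparison, and the 5 genes most like RRM2 and SAMHD1. A gene named in any comparison may be given in the others. One gene that this rule names is not reported here. Alternatives were other size factors, other filters, a test against 1.5-fold, a fit of the compared groups only, DESeq2 1.42.0, the replicate block, removal of GC and length trends (lowess span 0.3) and leaving out each library.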

Additional observations from a re-analysis of the deposited data

Results flagged for a closer look

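The isoform groups, both compared in 1 fit, differed in 3 members by a test of the difference itself. SAMHD1 was higher in ERb5 than in ERb1 by 1.88 on the log2 scale (edgeR adjusted p = 0.000160), in both libraries of ERb5 against both of ERb1. TK1 was higher by 0.71 (adjusted p = 0.00890) and RRM2 by 0.67 (adjusted p = 0.0160), again in both libraries of each group. The call of SAMHD1 held under all 13 alternatives run, whereas those of TK1 and RRM2 were lost without ERb1 1, ERb1 2 or ERb5 2 and against a minimum change of 1.5-fold.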

How the results depend on the processing

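Of 54 results (9 members in 6 comparisons), 33 were called. Under 13 alternatives each, 14 of these were called with the same direction throughout and 19 lost the call at least once. Another 7 gained a call at least once. Against a minimum change of 1.5-fold, the members called numbered 1 for ERb_KO against control, 5 for ERb1 against ERb_KO, 3 for ERb5 against ERb_KO, 1 for ERb5 against ERb1, 2 for ERb1 against control and 2 for ERb5 against control, where the counts without that minimum were 5, 9, 7, 3, 4 and 5. Leaving out each library in turn gave 2 to 5, 6 to 9, 5 to 8, 1 to 3, 3 and 3 to 5 members called in the same order. The lowest were without control 2, ERb1 1, ERb5 2, any of ERb1 1, ERb1 2 and ERb5 2, any library, and control 1. A library left alone is assumed to vary like the other groups. With the replicate block the members called were 5, 9, 7, 3, 4 and 5, and no call of a member changed. Between groups, deviations of same-numbered libraries correlated at -0.12 to 0.14 over all tested genes. Such values cannot tell whether same-numbered libraries were handled together, and the labels do not say.

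Sign changes were seen only in results that had not passed. DCTPP1 in ERb5 against control (-0.00064) was 0.000978 with at least 1 CPM in 2 libraries, 0.0129 with the GC trend removed and -0.0550 to 0.0457 when libraries were left out, positive without control 1 (0.0110) and ERb5 2 (0.0457). DTYMK in ERb_KO against control ran from -0.0531 to 0.273 when libraries were left out. In ERb5 against ERb1 the ranges were -0.180 to 0.489 for DCK (also -0.0510 without ERb5 1), -0.0517 to 0.160 for DUT, -0.0695 to 0.155 for TYMS and -0.0684 to 0.223 for RRM1.

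Counts over all genes moved more. In the order above they were 2434, 3466, 3922, 649, 565 and 1831, and against 1.5-fold 123, 455, 160, 189, 86 and 341. Leaving out libraries gave 237 to 1480, 1198 to 3773, 1672 to 4378, 125 to 1389, 128 to 235 and 587 to 2143. With the GC trend removed 1607, 2509, 1141, 1355 and 3044 passed in ERb_KO against control, ERb5 against ERb_KO, ERb5 against ERb1, ERb1 against control and ERb5 against control. In fits of the compared groups only, 4351 passed in ERb_KO against control, 421 in ERb5 against ERb1 and 1107 in ERb1 against control. Without a filter 1375 passed in ERb5 against ERb1 and 1384 in ERb1 against control, where DESeq2 gave 853. Leaving out a library both lowered and raised these counts, and the cause of the shifts was not tested. Depth limits ESR2 and CDA, which had at most 25 and 18 reads.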

Other observations

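Steps outside the deoxynucleotide route were read in the same way. Of 18 genes of ribonucleotide synthesis, 0 were higher and 2 lower in ERb_KO against control, 3 and 1 in ERb1 against ERb_KO, 2 and 4 in ERb5 against ERb_KO, 1 and 1 for ERb5 against ERb1, 0 and 1 in ERb1 against control and 1 and 4 in ERb5 against control. In the same order, 8.98%, 12.4%, 14.7%, 3.49%, 1.36% and 6.85% of all tested genes were higher. The shares lower were 8.52%, 12.5%, 13.5%, 1.18%, 2.70% and 6.31%. IMPDH2, the rate-limiting enzyme of guanine nucleotide synthesis, fell in ERb_KO against control from 615 to 384 CPM, a log2 change of -0.68 ± 0.13 (edgeR adjusted p = 0.00641). It was 0.40 ± 0.13 higher in ERb1 than in ERb_KO (adjusted p = 0.0393), and the difference of ERb5 from ERb1 was -0.59 ± 0.13 (adjusted p = 0.0210). The fall in ERb_KO was not called without control 1, control 2 or ERb_KO 1 (adjusted p = 0.0580, 0.0523 and 0.0585). The rise in ERb1 was not called without any of its 4 libraries (adjusted p from 0.0599 to 0.209) or after removal of the GC trend (0.30, adjusted p = 0.134). The difference of IMPDH2 between ERb5 and ERb1 was not called without ERb1 1, ERb1 2 or ERb5 2 (0.115, 0.0856 and 0.116). CAD, which starts pyrimidine synthesis, fell by 0.42 ± 0.12 in ERb5 against ERb_KO (adjusted p = 0.0281), which was not called without ERb_KO 1, ERb_KO 2 or ERb5 2 (0.109, 0.0824 and 0.157) and was -0.65 and called after removal of the GC trend. Under the alternatives run, leaving out a library included, the number of these 18 genes called lower in ERb_KO against control ran from 0 to 5.

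Of 9 genes of nucleoside transport and ribonucleoside salvage, 1 was lower in ERb_KO against control, beside 8.52% of tested genes. In ERb1 and in ERb5 against ERb_KO 1 was higher, beside 12.4% and 14.7%. The other comparisons held no calls, and the gene called in these was APRT, the adenine salvage enzyme. It fell in ERb_KO against control from 319 to 217 CPM (-0.56 ± 0.14, edgeR adjusted p = 0.0214) and was higher in ERb1 and ERb5 than in ERb_KO by 0.55 ± 0.14 and 0.60 ± 0.14 (adjusted p = 0.0152 and 0.0110). After removal of the GC trend these changes were -0.16, 0.22 and 0.17, and none was called. The fall of APRT was also not called without control 1, control 2 or ERb_KO 1 (adjusted p = 0.0895, 0.147 and 0.163), the rise in ERb1 without ERb_KO 1 or ERb1 1 (0.119 and 0.0888) and that in ERb5 without ERb_KO 1 or ERb5 2 (0.0806 and 0.0709).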
